A study of Homo sapiens with 24 samples.

Results

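The genes described here encode dual-specificity phosphatases (DUSPs) that act on MAP kinases: DUSP1, DUSP2, DUSP4, DUSP5, DUSP6, DUSP7, DUSP8, DUSP10, DUSP16 and DUSP22. They were taken by gene symbol, with no threshold on a measured value, and make up 10 of the 25559 genes counted in each library. The 24 RNA-seq libraries come from established human T-cell lines: PF382, from T-cell acute lymphoblastic leukemia, TLOm1, from adult T-cell leukemia, and HH, from cutaneous T-cell lymphoma. Exposure to AZA (azacitidine) or decitabine lasted 96 h, with fresh drug each 24 h, beside untreated cells. PF382 and TLOm1 received AZA at 125, 250 or 500 nM, HH received 50, 125 or 250 nM, and all lines received decitabine at 5, 12.5 or 25 nM. Each line, drug and dose has 1 library, and each set of libraries (AZA, decitabine) holds 1 untreated library per line, the sets being told apart only by the prefix of the library titles. No line carries an engineered allele, each is a single established line, and AZA and decitabine are nucleoside analogs that inhibit DNA methylation. The doses of a line are not replicates, and no source says that they came from separate cultures, so every p below measures only the spread between these libraries.

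MAP kinases (ERK, JNK and p38) are switched on by phosphorylation of a threonine and a tyrosine in the activation loop, and DUSPs switch them off by removing both phosphates. In T cells, antigen receptor signals reach ERK through RAS, and several DUSP genes are themselves induced by ERK, which makes them part of a negative feedback loop. The nuclear inducible members are DUSP1, DUSP2, DUSP4 and DUSP5; DUSP6 and DUSP7 are cytoplasmic and prefer ERK; DUSP8, DUSP10 and DUSP16 prefer JNK and p38; DUSP22 is an atypical member that lacks the MAP kinase docking domain, dephosphorylates the kinase LCK and lies in a locus rearranged in some T-cell lymphomas.

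Total counts ranged from 13892514 to 32496676 per library, and 0 counts in the smallest library allow up to 0.216 CPM (counts scaled to a common library total; a floor of 3 counts, counting error only). Of 10 T-cell markers, 10 averaged at least 1 CPM in PF382, 8 in HH and 4 in TLOm1, where CD3E, CD247, CD2 and CD4 were present and CD3D, CD3G and CD7 stayed at or below 0.848 CPM in each library. Epithelial markers, which these lines should lack, summed to 22.5 to 43.2 CPM with AZA, 12.3 to 46.1 CPM with decitabine and 3.65 to 5.37 CPM untreated in PF382. In TLOm1 the same sums were 136 to 154 CPM with AZA, 85.8 to 147 CPM with decitabine and 49.0 to 81.6 CPM untreated, and in HH none passed 2.84 CPM. KRT8, KRT18 and CDH1 made up most of these sums, KRT19 was at 0 in every PF382 library, and the part of these cells or genes in the DUSP values was not tested. A line's pair of untreated libraries showed more than counting noise (chi-square per degree of freedom 36.2 in PF382, 25.1 in TLOm1 and 35.8 in HH) and were kept as separate samples.

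Because both drugs act on cytosine methylation at CG dinucleotides, the promoters of 4 members are printed from RefSeq (GRCh38.p14), each a window of 300 bases, 250 before the transcript start and 50 after it. Windows were examined for 8 of the 10 members. None was examined for DUSP4 or DUSP5, so the letters and CG counts below say nothing about these members. DUSP22, at or near 0 counts in TLOm1, and DUSP2, the member lower in every library after decitabine, are shown with each CG in capitals. The DUSP22 window is chr6:292237-292536 on the plus strand and holds 33 CG, and the DUSP2 window is chr2:96145391-96145690 on the minus strand and holds 35.
DUSP22: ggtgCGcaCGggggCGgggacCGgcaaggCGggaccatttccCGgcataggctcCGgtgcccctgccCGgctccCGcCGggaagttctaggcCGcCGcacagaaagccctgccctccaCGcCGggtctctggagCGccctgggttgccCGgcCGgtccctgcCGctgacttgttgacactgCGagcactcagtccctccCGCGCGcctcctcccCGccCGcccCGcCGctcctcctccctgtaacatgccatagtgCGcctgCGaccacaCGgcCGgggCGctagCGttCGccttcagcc
DUSP2: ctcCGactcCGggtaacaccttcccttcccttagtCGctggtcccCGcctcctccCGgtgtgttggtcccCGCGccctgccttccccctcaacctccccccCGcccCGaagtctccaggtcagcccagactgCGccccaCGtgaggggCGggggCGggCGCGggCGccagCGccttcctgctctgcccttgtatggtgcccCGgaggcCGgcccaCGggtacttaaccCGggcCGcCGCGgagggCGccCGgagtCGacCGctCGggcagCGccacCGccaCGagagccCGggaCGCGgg
DUSP1 and DUSP8 are shown because theirs were the only windows among these members with the letters TGACGTCA, the cyclic AMP response element, which is capitalized below. The DUSP1 window is chr5:172771146-172771445 and the DUSP8 window chr11:1572222-1572521, both on the minus strand.
DUSP1: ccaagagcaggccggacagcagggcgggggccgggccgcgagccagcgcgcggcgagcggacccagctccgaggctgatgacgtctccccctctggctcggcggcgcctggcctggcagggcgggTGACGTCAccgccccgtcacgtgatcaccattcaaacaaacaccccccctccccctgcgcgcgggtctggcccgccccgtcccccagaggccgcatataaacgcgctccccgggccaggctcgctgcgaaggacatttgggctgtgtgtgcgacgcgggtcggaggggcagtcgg
DUSP8: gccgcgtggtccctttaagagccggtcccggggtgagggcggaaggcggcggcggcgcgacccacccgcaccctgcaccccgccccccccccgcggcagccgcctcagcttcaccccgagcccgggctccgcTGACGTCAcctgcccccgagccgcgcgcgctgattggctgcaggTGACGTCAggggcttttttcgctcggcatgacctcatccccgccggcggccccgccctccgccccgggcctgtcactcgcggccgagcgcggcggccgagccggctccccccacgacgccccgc
The element occurred 1 time in the DUSP1 window, beginning at base 126 counted from 1 at its 5′ end, and 2 times in the DUSP8 window, the first copy beginning at base 133. It was found in 1.85% of all 35116 promoter windows of the same length, searched on both strands. Windows of the family held 45 CG in DUSP7, 44 in DUSP8, 36 in DUSP1, 35 in DUSP2, 33 in DUSP22, 29 in DUSP16, 19 in DUSP6, and 19 and 8 in the DUSP10 windows, against a median of 14 over all windows. The letters TGANTCA (AP-1), GCGTGGGCG (EGR1), CCGGAAGT (ETS) and TTCNNNGAA (GAS) and the CArG box were in none of these 9 windows, while 7.71%, 0.795%, 4.14%, 7.66% and 1.29% of all windows held them in that order. A match is a description of letters and not a bound site, and methylation was not measured here.

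Before any drug, DUSP1, DUSP2, DUSP7 and DUSP16 were above 3 CPM in every line, while DUSP4, DUSP6, DUSP8, DUSP10 and DUSP22 ranged from low levels or no counts in at least 1 line to far higher levels in another, and DUSP5 was low throughout. All 10 members passed the filter on low counts, and all 10 differed between the untreated lines in edgeR's quasi-likelihood test (adjusted p below 0.05), where 82.9% of all 15501 genes tested also differed, so that the count is close to the background. PF382 against HH differed for 9 members (66.4% of all genes), TLOm1 against HH for 8 (55.7%) and PF382 against TLOm1 for 8 (67.2%). Only 2 untreated libraries stand behind each line, and the values below are CPM in the untreated library of the AZA set and then of the decitabine set.

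**Figure D1:**
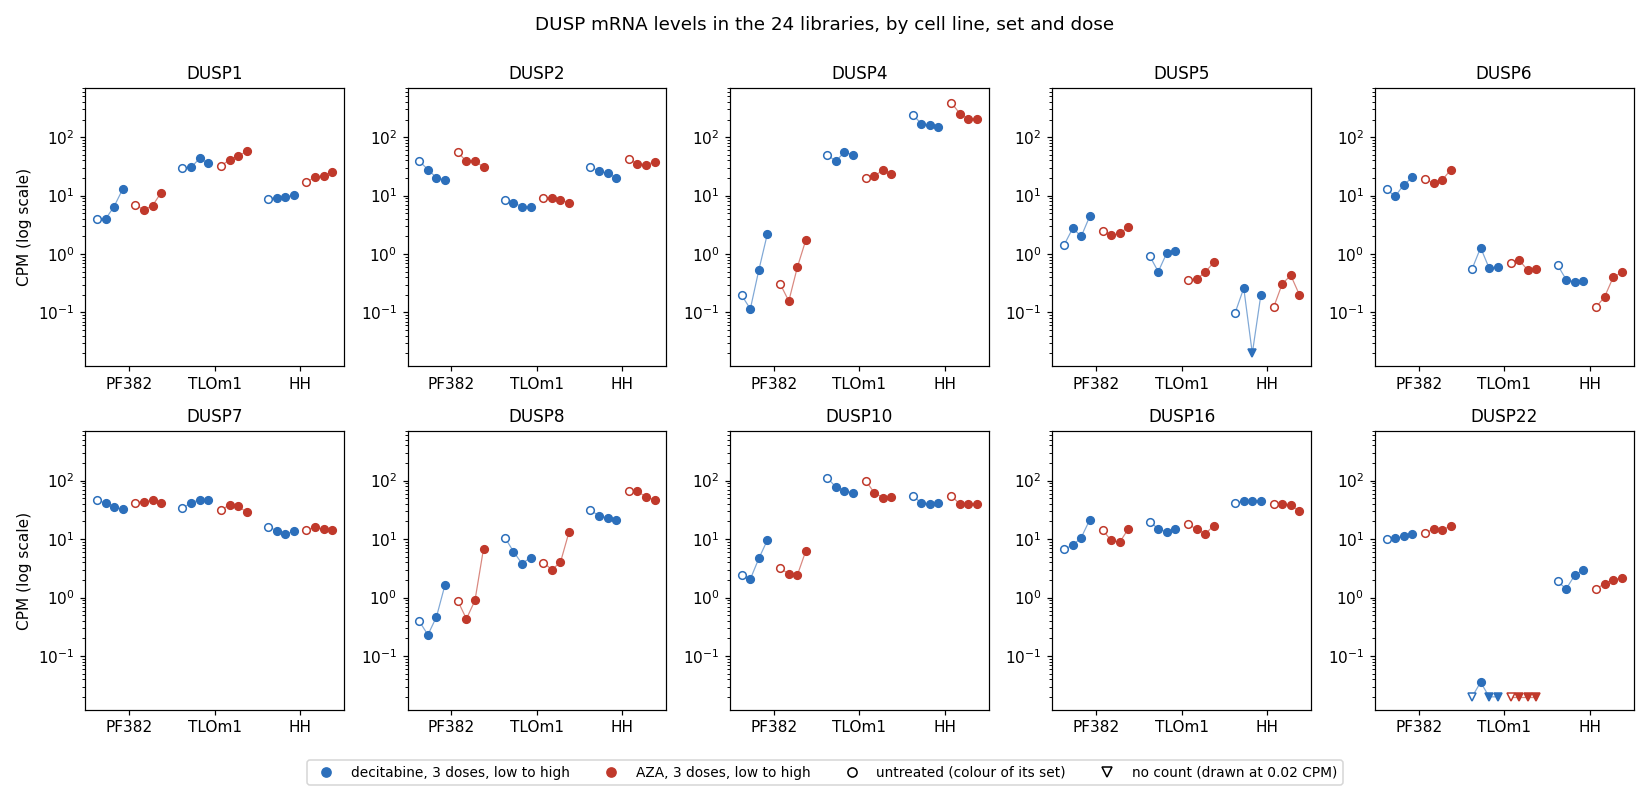
CPM of each DUSP gene on a log axis in every library, with lines from left to right and, within a line, the decitabine set left of the AZA set and doses running upward from untreated (open symbols). DUSP4 and DUSP8 were highest in HH, DUSP6 and DUSP22 in PF382 and DUSP1 and DUSP10 in TLOm1, and triangles at 0.02 CPM mark libraries without a count.

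Among the nuclear members, DUSP4, a phosphatase of ERK and JNK, had the widest range. It was at 0.305 and 0.195 CPM in PF382, 20.1 and 49.7 CPM in TLOm1, and 387 and 243 CPM in HH. The log2 difference was -10.41 ± 1.07 (adjusted p = 0.00541) for PF382 against HH and -3.28 ± 0.65 (adjusted p = 0.0319) for TLOm1 against HH. For PF382 against TLOm1 it was -7.13 ± 1.13 (adjusted p = 0.0155), all in edgeR. Each ± here and below is an SE derived from the F statistic of the test. With either untreated PF382 library left out, none of these 3 DUSP4 calls was kept (adjusted p 0.119 to 0.237), and that of TLOm1 against HH was also lost with no filter on low counts (adjusted p = 0.0801). The level in PF382 rested on 7 and 3 counts against 9416 and 4889 in HH.

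DUSP1, an immediate-early phosphatase that acts on p38, JNK and ERK, was at 6.81 and 3.91 CPM in PF382, 32.2 and 29.8 CPM in TLOm1, and 16.9 and 8.90 CPM in HH. Its log2 difference was -1.44 ± 0.24 for PF382 against HH and 1.3 ± 0.22 for TLOm1 against HH (adjusted p = 0.000289 and 0.000416, edgeR). DUSP2, an ERK phosphatase induced on T-cell activation, was at 54.7 and 38.7 CPM in PF382, 9.02 and 8.28 CPM in TLOm1, and 41.5 and 31.3 CPM in HH. TLOm1 was lower than HH by a log2 difference of -2.09 ± 0.16 (adjusted p = 1.05e-06, edgeR), while PF382 and HH overlapped and were not told apart (0.16 ± 0.15, adjusted p = 0.355). DUSP5, a nuclear phosphatase of ERK, was low throughout, at 2.49 and 1.43 CPM in PF382, 0.366 and 0.926 CPM in TLOm1, and 0.123 and 0.0994 CPM in HH, the last from 3 and 2 counts. PF382 and TLOm1 were above HH (log2 3.90 ± 0.73 and 2.42 ± 0.83, adjusted p = 0.000698 and 0.0281, edgeR) and PF382 was above TLOm1 (1.48 ± 0.56, adjusted p = 0.0364). The TLOm1 against HH call for DUSP5 was lost without either untreated HH library or without the TLOm1 library of the decitabine set (adjusted p 0.0959 to 0.336), and the PF382 against TLOm1 call without the AZA-set library of either line (log2 0.58 and 0.49, adjusted p = 0.495 and 0.617). DESeq2 called neither of these last 2 differences. A separately listed pseudogene, DUSP5P, stood at 26.2 to 48.2 CPM in HH and at 4.5 to 9.95 CPM in PF382, so that reads placed on the wrong copy would weigh heavily on DUSP5.

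Of the cytoplasmic pair, DUSP6, a feedback phosphatase of ERK, was high in PF382 alone, with 19.1 and 12.8 CPM there, 0.691 and 0.555 CPM in TLOm1, and 0.123 and 0.646 CPM in HH. The log2 difference was 5.23 ± 0.52 for PF382 against HH and 4.5 ± 0.48 for PF382 against TLOm1 (adjusted p = 1.53e-05 and 2.33e-05, edgeR). The size of these differences rested on 3 and 13 counts in HH and 17 and 12 in TLOm1. TLOm1 and HH did not differ beyond their spread (0.73 ± 0.68, adjusted p = 0.393). Without the HH library of the decitabine set that difference was 2.51 (adjusted p = 0.0182), and without that of the AZA set -0.38 (adjusted p = 0.659). An annotated readthrough transcript, POC1B-DUSP6, overlaps the gene. DUSP7, its closest relative in this set, was present in all lines at 41.7 and 45.7 CPM in PF382, 31.0 and 33.8 CPM in TLOm1, and 14.2 and 16.4 CPM in HH. PF382 and TLOm1 were both above HH (log2 1.32 ± 0.14 and 1.05 ± 0.14, adjusted p = 1.01e-05 and 8.32e-05, edgeR) and were not told apart from each other (0.27 ± 0.14, adjusted p = 0.107).

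The JNK and p38 phosphatases split by line. DUSP8 was at 0.873 and 0.391 CPM in PF382, 3.94 and 10.6 CPM in TLOm1, and 66.9 and 31.1 CPM in HH. Its log2 difference was -6.36 ± 1.0 for PF382 against HH (adjusted p = 0.0103, edgeR). TLOm1 against HH (-2.75 ± 0.76, adjusted p = 0.0544) and PF382 against TLOm1 (-3.61 ± 1.08, adjusted p = 0.0556) missed the threshold although their libraries did not overlap. Each of these 2 stayed uncalled in 5 alternatives and was called in 6. DESeq2 called both (adjusted p = 0.00018 and 8.53e-07), as did edgeR with all 24 libraries (adjusted p = 4.97e-06 and 0.000117), where doses count as libraries of a line. The other calls came with 1 HH or TLOm1 library left out. Such a fit keeps 1 untreated library of that line and cannot show the spread between its libraries. The PF382 against HH call for DUSP8 was also lost without either untreated PF382 library (adjusted p = 0.233 without that of the AZA set and 0.160 without that of the decitabine set) and with no filter on low counts (0.0513). RefSeq lists the pseudogenes DUSP8P1, DUSP8P2 and DUSP8P5, whose reads could be assigned to either copy. DUSP10 was at 3.14 and 2.41 CPM in PF382, 99.2 and 112 CPM in TLOm1, and 55.4 and 54.2 CPM in HH. PF382 against TLOm1 had the smallest adjusted p of any member and pair of lines, at log2 -5.38 ± 0.18 (adjusted p = 9.52e-10, edgeR), and TLOm1 against HH stood at 0.92 ± 0.13 (adjusted p = 0.000153). DUSP16 was at 14.3 and 6.78 CPM in PF382, 18.1 and 19.8 CPM in TLOm1, and 40.1 and 41.9 CPM in HH, and each pair of lines differed (adjusted p 0.000321 to 0.0158, edgeR). The TLOm1 against HH call for DUSP16 was lost without the TLOm1 library of the AZA set or the HH library of the decitabine set (adjusted p = 0.0625 and 0.0936), and the PF382 against TLOm1 call without the TLOm1 library of the decitabine set (adjusted p = 0.0602).

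DUSP22 was at 12.7 and 10.1 CPM in PF382, at 0 counts in both untreated TLOm1 libraries, and at 1.40 and 1.89 CPM in HH. With a floor of 3 counts per library, TLOm1 was at least 105-fold lower than PF382 in the AZA set and at least 72.7-fold lower in the decitabine set. Against HH it was at least 11.5-fold lower in the AZA set and at least 13.6-fold lower in the decitabine set. Over the 8 TLOm1 libraries, 1 count was found among 199955196 reads, in the 5 nM decitabine library. Neither drug therefore brought DUSP22 above its floor in TLOm1, which was 0.139 CPM in the shallowest of them.

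The second question was whether AZA or decitabine changed the family. In edgeR with line as a block, none of the 10 members passed the threshold against untreated, for AZA (1.0% of 16554 genes called) or for decitabine (0% of 16354 genes called, with 2585 genes at an unadjusted p under 0.05). At an unadjusted p under 0.05 were 2 members with AZA, DUSP1 and DUSP2, beside 3454 of all genes, and 1 with decitabine, DUSP2, shares of the members no higher than those of all genes. DESeq2 called 0 members for AZA (1123 of all genes) and 1 for decitabine, DUSP2 (464 of all genes). Limma-voom called 1 for AZA, DUSP10 (438 of all genes), and 0 for decitabine (12 of all genes). The median log2 fold change over the 10 members was 0.15 with AZA and -0.02 with decitabine, against 0.02 and 0.03 over all genes tested. A change with the dose among the 9 treated libraries was called for 1 member with AZA (14.2% of 16450 genes) and 1 with decitabine (3.59% of 16248 genes). The AZA share of 1 in 10 was no higher than its background, and the decitabine share rests on a single gene.

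**Figure D2:**
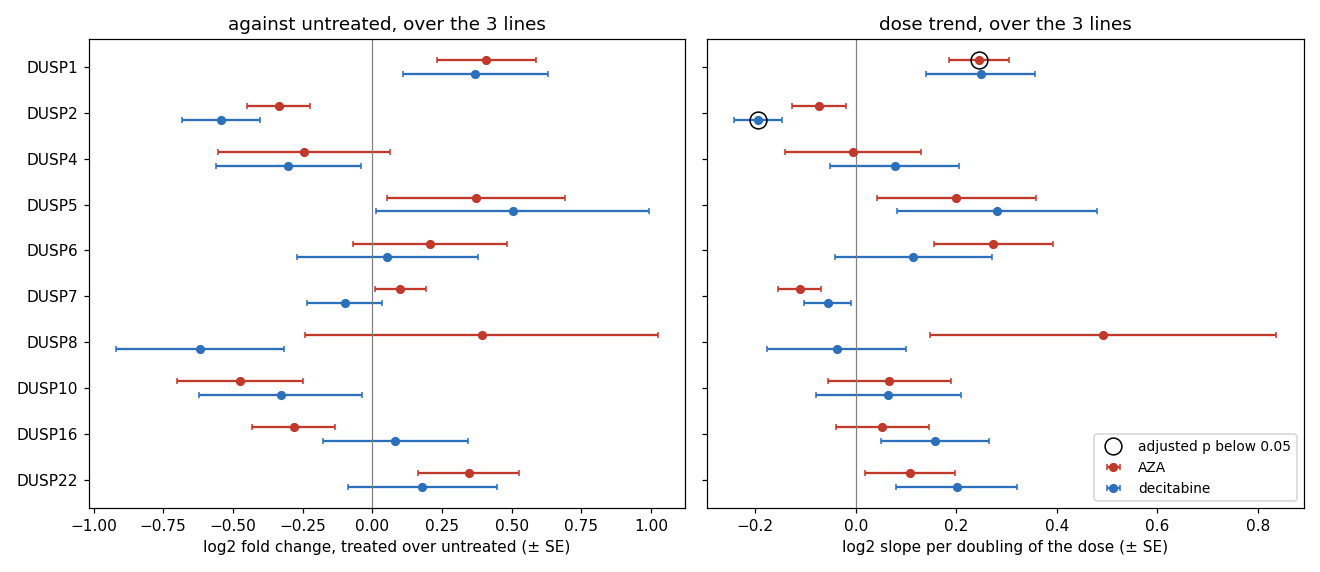
Fitted log2 fold change against untreated (left) and log2 slope per doubling of the dose (right) with SE for each DUSP gene, AZA in red and decitabine in blue, from edgeR with line as a block over 9 treated and 3 untreated libraries on the left and 9 treated on the right. The ringed points are DUSP1 with AZA at 0.25 per doubling and DUSP2 with decitabine at -0.19 per doubling.

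DUSP1 rose with the AZA dose. It was 6.81 CPM untreated and 5.72, 6.71 and 11.2 CPM at 125, 250 and 500 nM in PF382. In TLOm1 it was 32.2 CPM untreated and 40.9, 47.3 and 57.0 CPM at the same doses, and in HH 16.9 CPM untreated and 20.9, 21.4 and 25.6 CPM at 50, 125 and 250 nM. Among treated libraries each line was ordered by dose, and every treated TLOm1 and HH library was above its untreated one, while PF382 was above it at 500 nM alone. The slope was 0.25 ± 0.06 on the log2 scale per doubling (SE, adjusted p = 0.0246, edgeR), and that for AZA against untreated was 0.41 ± 0.18 (adjusted p = 0.215). The call on the slope was lost without PF382 at 125 nM or without TLOm1 at 125, 250 or 500 nM (adjusted p 0.0507 to 0.0702, slope 0.21 to 0.26). An exact two-sided permutation of the untreated label within lines gave p = 0.109 (64 arrangements, smallest p 0.0156; 7 of 9 libraries above).

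With decitabine DUSP1 was 3.91 CPM untreated and 3.96, 6.49 and 12.8 CPM at 5, 12.5 and 25 nM in PF382, 29.8 CPM untreated and 30.3, 43.1 and 36.0 CPM in TLOm1, and 8.90 CPM untreated and 9.12, 9.27 and 10.4 CPM in HH. All 9 treated libraries were above their untreated one, by ratios of 1.01 at 5 nM and 3.28 at 25 nM in PF382 (95% counting intervals 0.706 to 1.46 and 2.43 to 4.47), and neither test passed (log2 0.37 ± 0.26, adjusted p = 0.50; slope 0.25 ± 0.11, adjusted p = 0.263; edgeR). The exact permutation p was 0.172.

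DUSP2 was the one member with lower values after decitabine in all 9 treated libraries. It was 38.7 CPM untreated and 27.8, 20.2 and 18.5 CPM at 5, 12.5 and 25 nM in PF382, 8.28 CPM untreated and 7.48, 6.48 and 6.35 CPM in TLOm1, and 31.3 CPM untreated and 26.0, 24.2 and 20.2 CPM in HH. Values fell in dose order within each line, and the treated libraries lay below the untreated library in each. The slope was -0.19 ± 0.05 on the log2 scale per doubling (adjusted p = 0.0432, edgeR), and the difference from untreated was -0.54 ± 0.14 (adjusted p = 0.142). The exact two-sided permutation p was 0.0156, the smallest that 64 arrangements can give. This permutation was run for every member with each drug, and no p was corrected for the number of tests. DUSP2 with decitabine had the smallest p among them. That p largely restates that the untreated library was the highest in each line, so it is not separate evidence of a drug effect. The slope lost its call when 7 of the 9 libraries were left out in turn, namely HH at 5, 12.5 or 25 nM, PF382 at 5, 12.5 or 25 nM and TLOm1 at 12.5 nM (adjusted p 0.0654 to 0.235, slope -0.22 to -0.14).

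With AZA DUSP2 was 54.7 CPM untreated and 38.6, 39.7 and 30.4 CPM at 125, 250 and 500 nM in PF382, 9.02 CPM untreated and 9.05, 8.37 and 7.59 CPM in TLOm1, and 41.5 CPM untreated and 34.9, 33.9 and 37.7 CPM at 50, 125 and 250 nM in HH. It was lower in 8 of 9 libraries, with 1 TLOm1 library level with its untreated one. The log2 difference from untreated was -0.34 ± 0.11 (adjusted p = 0.136, edgeR), and the slope was -0.07 ± 0.05 (adjusted p = 0.398). The exact permutation p was 0.0312, also without correction for the number of tests. The doses of the drugs do not match, so the changes with AZA and decitabine stand side by side and were not compared.

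**Figure D3:**
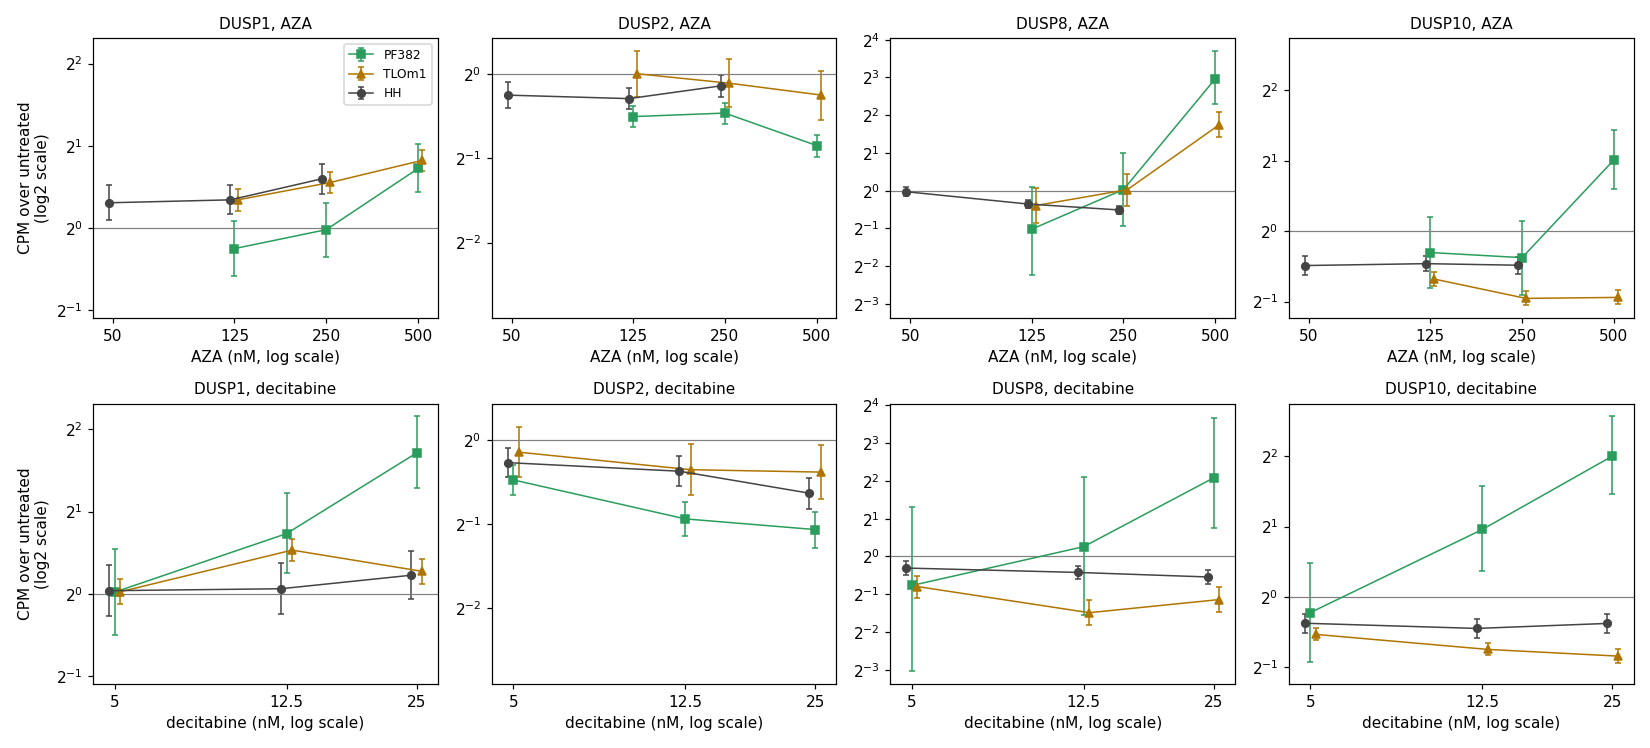
Ratio of CPM in each treated library to the untreated library of the same line and set (log2 axis) against the dose (log axis) for DUSP1, DUSP2, DUSP8 and DUSP10, AZA above and decitabine below, with 95% counting intervals and 1 library at each point. DUSP8 in PF382 reached 7.81 at 500 nM AZA, and DUSP10 in TLOm1 stayed between 0.516 and 0.691 with both drugs.

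DUSP4 stood below untreated in HH and, at the upper doses, above it in PF382. In HH it was 387 CPM untreated and 253, 202 and 203 CPM at 50, 125 and 250 nM AZA, and 243 CPM untreated and 169, 159 and 149 CPM at 5, 12.5 and 25 nM decitabine. All 6 treated HH libraries were below their untreated one, with ratios of 0.521 to 0.694 and counting intervals that excluded 1. In PF382 it was 0.305 CPM untreated and 0.157, 0.594 and 1.75 CPM with AZA at 125, 250 and 500 nM, and 0.195 CPM untreated and 0.115, 0.535 and 2.23 CPM with decitabine at 5, 12.5 and 25 nM, so that the ratio at the top dose was 5.74 (2.57 to 15.1) with AZA and 11.4 (3.56 to 58.4) with decitabine. In TLOm1 the treated values of 21.7 to 27.0 CPM with AZA stood against 20.1 CPM untreated, and those of 38.6 to 55.5 CPM with decitabine against 49.7 CPM untreated. None of these DUSP4 differences passed: AZA in HH had a log2 difference of -0.83 ± 0.36 (adjusted p = 0.423), AZA in PF382 1.39 ± 1.27 (adjusted p = 0.72), decitabine in PF382 2.12 ± 1.70 (adjusted p = 0.589), and the lines' effects were not called different for AZA (adjusted p = 0.549) or decitabine (adjusted p = 0.766) in edgeR. DUSP5 stayed at or below 0.431 CPM in HH and 1.14 CPM in TLOm1 in every library. In PF382 it was 2.49 CPM untreated and 2.08 to 2.91 CPM with AZA, and 1.43 CPM untreated and 2.01 to 4.46 CPM with decitabine, the highest at 25 nM (ratio 3.11, 1.89 to 5.32).

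DUSP6 in PF382 was 19.1 CPM untreated and 16.2, 18.5 and 27.5 CPM at 125, 250 and 500 nM AZA, and 12.8 CPM untreated and 9.64, 15.3 and 20.4 CPM at 5, 12.5 and 25 nM decitabine. It was below untreated at the lowest dose of either drug (0.846, 0.738 to 0.97 for AZA and 0.751, 0.608 to 0.928 for decitabine) and above it at the highest (1.44, 1.27 to 1.62 and 1.59, 1.32 to 1.91), counting error only. It stayed at or below 1.28 CPM in TLOm1 and 0.646 CPM in HH, and neither drug gave a call (slope 0.27 ± 0.12 with AZA, adjusted p = 0.149, edgeR). DUSP7 held between 12.2 and 16.4 CPM in HH. With AZA DUSP7 was 41.7 CPM untreated and 43.9, 45.9 and 41.7 CPM in PF382, and 31.0 CPM untreated and 38.8, 36.1 and 29.1 CPM in TLOm1, so that the top dose lay at or below the untreated level in these lines. After decitabine it was 41.8, 35.3 and 32.2 CPM in PF382 against 45.7 CPM untreated, and 41.6, 47.3 and 45.9 CPM in TLOm1 against 33.8 CPM untreated. This was the member with the smallest p for a decitabine effect that differed between lines, at an unadjusted p of 0.00879 and an adjusted p of 0.438 (edgeR), with log2 effects of -0.36 ± 0.17 in PF382, 0.41 ± 0.17 in TLOm1 and -0.34 ± 0.18 in HH.

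Of the JNK and p38 phosphatases, DUSP8 had the largest single ratios. In PF382 it was 0.873 CPM untreated and 0.431, 0.892 and 6.82 CPM at 125, 250 and 500 nM AZA, and in TLOm1 3.94 CPM untreated and 3.0, 4.02 and 13.2 CPM at the same doses. The values at 500 nM, with ratios of 7.81 (4.90 to 13.1) and 3.36 (2.67 to 4.26), stood far above those at 250 nM, which were near the untreated level, and at 125 nM the ratios were 0.494 (0.214 to 1.08) and 0.761 (0.554 to 1.04). In HH the order was the reverse, with 66.9 CPM untreated and 65.7, 52.5 and 47.0 CPM at 50, 125 and 250 nM. With decitabine DUSP8 was 0.391 CPM untreated and 0.230, 0.468 and 1.66 CPM in PF382, 10.6 CPM untreated and 6.13, 3.79 and 4.83 CPM in TLOm1, and 31.1 CPM untreated and 25.1, 23.2 and 21.3 CPM in HH. The AZA slope over the lines was 0.49 ± 0.34 (adjusted p = 0.392, edgeR). Without HH, which was dosed at 50 to 250 nM, the slope for PF382 and TLOm1 was 1.47 (adjusted p = 0.0189), an alternative among several.

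DUSP10 was lower than untreated in all 12 treated TLOm1 and HH libraries, with counting intervals that excluded 1. In TLOm1 it was 99.2 CPM untreated and 61.9, 51.2 and 51.7 CPM at 125, 250 and 500 nM AZA, and 112 CPM untreated and 77.4, 66.8 and 62.5 CPM at 5, 12.5 and 25 nM decitabine. In HH it was 55.4 CPM untreated and 39.5, 40.3 and 39.6 CPM at 50, 125 and 250 nM AZA, and 54.2 CPM untreated and 41.8, 39.7 and 41.7 CPM with decitabine. In PF382, where the gene was low, it was 3.14 CPM untreated and 2.55, 2.42 and 6.34 CPM with AZA, and 2.41 CPM untreated and 2.07, 4.68 and 9.65 CPM with decitabine. The difference from untreated over the lines was -0.47 ± 0.23 on the log2 scale with AZA (adjusted p = 0.257, edgeR) and -0.33 ± 0.29 with decitabine (adjusted p = 0.601). In TLOm1 alone it was -0.84 ± 0.39 with AZA and -0.70 ± 0.39 with decitabine (adjusted p = 0.261 and 0.672). With the PF382 library at 500 nM AZA left out, the AZA difference was -0.61 (adjusted p = 0.0317, edgeR). This is an alternative among several, without the AZA library that rose most (0.83 in log2(CPM + 1)). DUSP10 stayed uncalled in 22 of the alternatives and was called in 2.

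DUSP16 was below untreated in 8 of 9 AZA libraries, with ratios of 0.619 to 1.05, the highest in PF382 at 500 nM. With decitabine it was 6.78 CPM untreated and 7.81, 10.6 and 21.5 CPM in PF382, 19.8 CPM untreated and 15, 13.4 and 14.8 CPM in TLOm1, and 41.9 CPM untreated and 44.1, 45.7 and 45.4 CPM in HH. PF382 and TLOm1 were thus on opposite sides of their untreated libraries, and the test of a difference between lines missed the threshold (adjusted p = 0.624, edgeR). DUSP22 was 12.7 CPM untreated and 14.8, 14.1 and 17.1 CPM at 125, 250 and 500 nM AZA in PF382, and 1.40 CPM untreated and 1.73, 2.03 and 2.18 CPM at 50, 125 and 250 nM in HH. With decitabine at 5, 12.5 and 25 nM it was 10.1 CPM untreated and 10.4, 11.2 and 12.2 CPM in PF382, and 1.89 CPM untreated and 1.41, 2.40 and 2.98 CPM in HH. The 6 AZA libraries of these lines were all above untreated, and TLOm1 stayed at 0. Its log2 difference from untreated over the lines was 0.35 ± 0.18 with AZA (adjusted p = 0.313, edgeR) and 0.18 ± 0.27 with decitabine (adjusted p = 0.774).

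**Figure D4:**
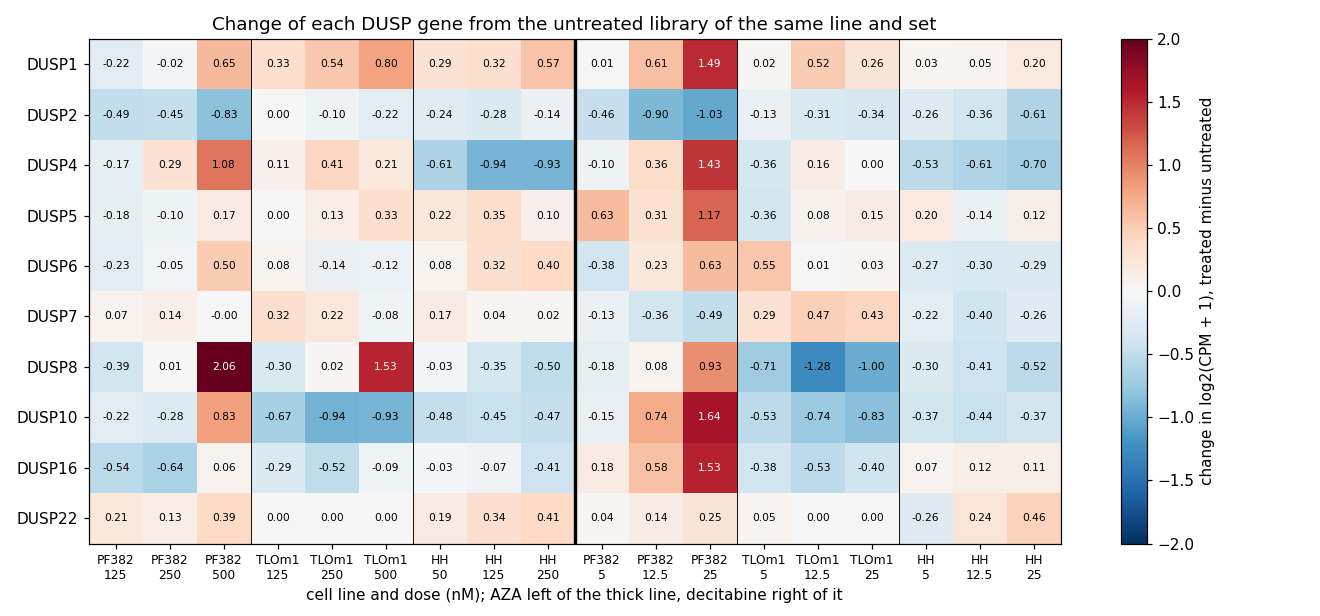
Change in log2(CPM + 1) of each DUSP gene (rows) in each treated library (columns) from the untreated library of the same line and set, red higher and blue lower. The PF382 columns at 500 nM AZA and 25 nM decitabine are mostly red, with 8 of 10 genes above untreated in each, and the DUSP2 row is blue, with changes of -1.03 to -0.13 after decitabine.

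The PF382 library at 25 nM decitabine and that at 500 nM AZA stood apart from the other doses. At 25 nM decitabine, 7 of the 10 members had counting intervals above untreated (DUSP1, DUSP4, DUSP5, DUSP6, DUSP8, DUSP10 and DUSP16) and 2 below it (DUSP2 and DUSP7). At 500 nM AZA, 6 were above and 1 below, and in the other 16 treated libraries 0 to 3 were above. Among 13943 genes averaging at least 1 CPM, the shares above untreated were also highest in these libraries, at 37.1% with 25 nM decitabine and 37.4% with 500 nM AZA, against 17.6% to 31.0% in the others. The shares below untreated were 21.4% and 22.2%, so that the libraries differed widely beyond the DUSP genes. These shares and the counting intervals were scaled by library totals. On that scale the median log2 effect over all genes in PF382 was 0.094 with decitabine and 0.070 with AZA, against 0.052 and 0.032 with TMM scaling. The part of this shift in the shares was not tested. The 25 nM library was also the shallowest of the series, at 13892514 counts, and its part in these ratios was not tested. In PF382 0 of 10 members passed the test for decitabine (0.258% of 17841 genes called) and 0 for AZA (0.830%), and 3 and 1 reached an unadjusted p under 0.05, beside 2524 and 2167 of all genes. With DESeq2 they numbered 1 and 0, the 1 being DUSP2 (log2 -0.83, adjusted p = 0.0279). The median log2 effect of decitabine over the members was 0.89 in PF382, -0.05 in TLOm1 and -0.39 in HH. Over all genes it was 0.05, 0.03 and 0.01 in that order. The PF382 median lay next to the DUSP8 effect, which was imprecise (0.87 ± 2.23).

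In TLOm1, 0 members were called with AZA (0.998% of all genes) or decitabine (0%), and in HH 0 with AZA (0%) or decitabine (0%). Under an unadjusted p of 0.05 were 1, 1, 1 and 0 members in that order, beside 3313, 1473, 1955 and 1381 of all 17841 genes. DESeq2 called no member in any of these comparisons. Fewer cells and less RNA per cell cannot be told apart in these bulk libraries. An effect that differed between lines was called for 0 members with AZA (0.146% of all genes) and 0 with decitabine (0.00561%), and DESeq2 called 0 and 0. At an unadjusted p under 0.05 edgeR gave 0 and 1 members, beside 1902 and 1480 of all 17841 genes. Between the untreated libraries of the decitabine set and the AZA set, 0 members were called by edgeR or DESeq2 (10.6% of all genes were called by edgeR). At an unadjusted p under 0.05 in edgeR were 2 members, beside 4300 of all 15501 genes. DUSP1 was -0.59 ± 0.19 lower in the decitabine set on the log2 scale (adjusted p = 0.0644) and DUSP2 -0.39 ± 0.13 (adjusted p = 0.0724). DUSP4 in TLOm1 was 49.7 CPM in the untreated library of the decitabine set and 20.1 CPM in that of the AZA set, and DUSP8 in HH was 31.1 CPM and 66.9 CPM in the same order, with no drug in either library. In the same comparison EGR1, FOS and FOSB, immediate-early genes induced through ERK like DUSP1, were lower in the decitabine set (log2 -1.55 ± 0.19, -1.98 ± 0.32 and -1.25 ± 0.18, adjusted p = 0.00491, 0.01 and 0.00691, edgeR) and SH2B3 was higher (0.56 ± 0.15, adjusted p = 0.0405), which makes 4 of 20 ERK-responsive genes called. The part of this difference in the DUSP values was not tested.

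The lists of genes around the DUSPs gave few calls. Against untreated, AZA raised LAT, the adaptor that joins the T-cell receptor to RAS activation, by 0.97 ± 0.16 on the log2 scale (adjusted p = 0.0255, 1 of 21 genes of RAS activation tested). It also raised MAPK15, an atypical MAP kinase, by 3.07 ± 0.56 (adjusted p = 0.0319, 1 of 13 MAP kinases), from low levels of 2.84 to 5.29 CPM with AZA against 0.406 CPM untreated in TLOm1 and at most 0.605 CPM in the other lines. No gene passed among 13 other DUSPs, 20 MAP kinase kinases and RAF kinases, 22 ERK-responsive genes and feedback inhibitors, 16 AP-1 and stress-kinase genes or 13 genes of the STAT5 group (3, 4, 6, 3 and 4 at an unadjusted p under 0.05, beside 3454 of all 16554 genes). LAT was 309 to 443 CPM with AZA against 214 CPM untreated in PF382, 61.7 to 86.8 against 32.3 CPM in TLOm1, and 34.3 to 49.7 against 23.2 CPM in HH. Within lines, AZA raised PTPN7, another MAP kinase phosphatase (0.43 ± 0.09, adjusted p = 0.0376), and MAP3K5 (0.90 ± 0.17, adjusted p = 0.0178) in PF382, and SH2B3 in TLOm1 (1.80 ± 0.30, adjusted p = 0.0179). In TLOm1 it lowered ZFP36 (-0.93 ± 0.20, adjusted p = 0.043) and LCK (-4.46 ± 0.81, adjusted p = 0.0268), the kinase that DUSP22 dephosphorylates, where LCK was at 0 to 0.123 CPM with AZA, 1.34 CPM in the untreated library of the AZA set and 0 in that of the decitabine set. With decitabine 0 genes of any of these lists passed against untreated in edgeR, where 0 of all genes did.

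Along the AZA dose, 3 ERK-responsive genes rose and 1 fell of 22 tested, with a median slope of 0.26 against 0.01 over all genes. The called share of this and the following lists stands beside the 14.2% of all genes called in that comparison. They were FOSB (0.48 ± 0.07 per doubling, adjusted p = 0.00273), FOSL1 (0.66 ± 0.18, adjusted p = 0.0405), both partners of JUN in AP-1, SH2B3, an adaptor that restrains cytokine signaling (0.20 ± 0.04, adjusted p = 0.00717), and MYC, which fell (-0.18 ± 0.04, adjusted p = 0.0141; edgeR). The slope is among treated libraries: in TLOm1 FOSB was 2.06 to 4.75 CPM with AZA, below the 8.57 CPM of the untreated library. Of AP-1 and stress-kinase genes 2 of 16 rose, BATF3 and MAPKAPK2, and of MAP kinase kinases and RAF kinases 2 of 20 rose, MAP2K2 and the scaffold KSR1, and 1 fell, MAP2K6. LAT rose and RASGRP1, a RAS activator, fell among 21 RAS genes, STAT5A, JAK1 and JAK3 rose among 13 STAT5 genes, MAPK12 rose among 13 MAP kinases, and 0 of 13 other DUSPs passed (3 at an unadjusted p under 0.05, beside 4912 of all 16450 genes). Along the decitabine dose MYC fell (-0.28 ± 0.04, adjusted p = 0.0055), and 3 of 21 RAS genes rose, among them RASGRP2 and LAT, as did STAT5A and DUSP27 of the other DUSPs, where 3.59% of all genes were called. DUSP27 was counted in PF382 alone, at 0.631 to 5.04 CPM with decitabine against 0.195 CPM untreated. Between the untreated lines, 7 of 11 other DUSPs, 12 of 12 MAP kinases, 19 of 20 MAP kinase kinases and RAF kinases, 16 of 20 ERK-responsive genes and 16 of 16 AP-1 and stress-kinase genes differed, beside the 82.9% over all genes.

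Over the 18 treated libraries, the genes whose log2(CPM + 1) change from untreated ran closest to a member were compared by Pearson's r among 12223 genes, as a description with no p, since the libraries share untreated controls. DUSP1 ran closest to PLEC (0.90) and PCSK5 (0.88), DUSP2 to WDR18 (0.93) and SLCO4A1 (0.92), DUSP4 to PPP1R16B (0.94) and TLN2 (0.94), and DUSP10 to PIK3C2B (0.96) and MAGED2 (0.95). DUSP7 ran closest to UHRF1 (0.94), a factor in maintenance DNA methylation, and EXOSC5 (0.93), and DUSP8 to ATF3 (0.93) and CEBPB (0.93), both bZIP transcription factors of stress responses. DUSP16 ran closest to POLL (0.94) and RAB8B (0.93), DUSP5 to WDTC1 (0.89) and DLG4 (0.88), DUSP22 to ZNF445 (0.88) and SQRDL (0.87), and DUSP6 least closely to any gene, with ZNF710 at 0.79 and PEMT at 0.79. Among the members, r was lowest for DUSP2 with DUSP10 (-0.89) and highest for DUSP10 with DUSP16 (0.81) and DUSP5 with DUSP16 (0.80). These r pool lines and doses, and a negative r does not mean opposite directions. DUSP2 was below untreated in 8 of 9 AZA libraries and 9 of 9 decitabine libraries, and DUSP10 in 8 and 7. The DUSP10 libraries above untreated were all from PF382.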

How the data were processed

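Polyadenylated or rRNA-depleted RNA (the labels name both) was sequenced, and the authors deposited 1 table of raw read counts per gene for each of the 24 libraries. Of tools and builds, the submitters' processing notes list GRCh37.p2, STAR, limma and DESeq2 without roles. The counting program, its annotation and strand setting were not given in the sources used. Deposited counts were used unchanged, and CPM was computed from library totals. Genes were filtered with filterByExpr (minimum count 10, total 15) and tested with edgeR 4.0.16 (R 4.3.3; TMM, robust quasi-likelihood F test, Benjamini-Hochberg over all genes tested, threshold 0.05). AZA and decitabine sets were fitted separately with line as a block; 1 model of 24 libraries gave the effects within lines, 1 of 6 untreated libraries the lines and sets, and slopes used log2 dose over 9 treated libraries. The SE of an edgeR effect was the absolute log2 effect divided by the square root of F, and was not estimated separately. It need not match the printed p, as for DUSP5 with AZA against untreated (0.37 ± 0.32, unadjusted p = 0.528, edgeR). Exact permutations, exact conditional 95% counting intervals (counting error only) and Pearson's r used scipy 1.17.1 and pandas 2.3.3. DESeq2 1.42.0, limma 3.58.1 (voom), other scalings and filters, other dose codings and samples left out were the alternatives, and the scaling by library totals was chosen after seeing the data. The edgeR fits against untreated and along the dose were tested on simulated data for both drugs. So were those of AZA in PF382 and of untreated PF382 against HH, and the other calculations were not. The members and gene lists were chosen with earlier results of these data known. Named genes were all members, up to 4 genes per list with the smallest adjusted p in a comparison (those past the threshold first) and, for each member, the 2 genes averaging at least 1 CPM with the highest r. Coordinates and promoters are from RefSeq, GRCh38.p14, and were not mixed with the count build. A result of 1 listed gene is not reported here.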

Additional observations from a re-analysis of the deposited data

Results flagged for a closer look

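For each member and drug, the 9 changes in log2(CPM + 1) from untreated were checked for a value far from the rest, and 3 of 20 checks found one, where chance gives about 1 in 20 for independent values; these 9 share 3 untreated libraries and mix lines and doses, so that rate is only a guide. DUSP1 in PF382 at 25 nM decitabine changed by 1.49, against 0.61 for the nearest library, at 12.8 CPM. DUSP4 in the same library changed by 1.43, against 0.36 for the nearest, at 2.23 CPM. DUSP10 in PF382 at 500 nM AZA changed by 0.83, against -0.22 for the nearest, at 6.34 CPM. All 3 values come from PF382 at the top dose of its drug, and what sets them apart was not tested.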

How the results depend on the processing

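Over the members' values called in the main fit or in at least 1 alternative, 448 kept their direction and side of the threshold under the alternatives. A further 36 lost their call, 34 gained one and 6 reversed. Tests of an effect differing between lines were not counted, and most of the values were differences between untreated lines, so the totals say little about the drugs. For AZA against untreated, members called numbered 1 with limma-voom (DUSP10), 1 with untreated libraries of both sets (DUSP1) and 0 to 1 with a library left out. For the AZA dose trend they numbered 2 without HH, 0 without PF382, 2 with the dose rank from untreated up and 0 to 1 with a library left out; the DUSP1 slope was 0.17 (adjusted p = 0.0601) without PF382 and 0.26 (adjusted p = 0.0873) without TLOm1. For decitabine against untreated they numbered 1 with DESeq2 and 1 with untreated libraries of both sets (DUSP2 each time). For the decitabine dose trend they numbered 0 with library totals, 0 without HH, 0 without PF382 and 0 to 1 with a library left out. For decitabine in PF382 they numbered 1 with DESeq2, 1 with both untreated libraries of the line and 0 to 1 with a library left out. Between the untreated sets they numbered 2 with no filter and 0 to 3 with a library left out. Leaving out a library moved DUSP6 in TLOm1 against HH between -0.38 and 2.51, DUSP4 between sets between -0.67 and 1.17 (-0.66 without the TLOm1 library of the decitabine set), and DUSP8 between sets between -1.12 and 0.87 (0.79 without the HH library of the AZA set). DUSP7 in PF382 against TLOm1 was -0.11 with all 24 libraries. The causes were not tested. Scaling by library totals moved the median of all genes to 0.22 in untreated PF382 against HH and to 0.17 in PF382 against TLOm1, against 0.03 and 0.01. No analysis paired by replicate number was possible because the labels give none; treated libraries were matched to untreated ones by line and set throughout. Depth limits DUSP4 and DUSP8 in PF382, DUSP5 and DUSP6 in HH and TLOm1, and DUSP22 in TLOm1, which had few or no counts untreated.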
